A study of Homo sapiens with 8 samples.

Results

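The genes described here are 10 members of the MHC class II antigen presentation pathway: the class II chains HLA-DRA, HLA-DRB1, HLA-DPA1, HLA-DPB1, HLA-DQA1 and HLA-DQB1, the peptide editor chains HLA-DMA and HLA-DMB, the invariant chain CD74, and CIITA, their transactivator. They were chosen by name, with earlier results of these data known, and all 10 were found among the 60592 gene rows of each library. RNA was sequenced from WSU-DLCL2 cells, a long-established human line of diffuse large B-cell lymphoma. Control cells (genotype WT in the labels) and cells overexpressing FDX1 (FDX1-OE) were each given either DMSO or 15 nM elesclomol (ES) for 48 h, with 2 libraries in each of the 4 groups. FDX1 encodes the mitochondrial electron carrier ferredoxin 1, and elesclomol is a copper ionophore, a compound that ferries copper across membranes. How FDX1 was overexpressed, and whether the FDX1-OE cells are 1 clone, is not given in the sources used here. The labels do not say whether a group's 2 libraries are separate cultures, so p-values measure only the spread between these libraries, which may be technical.

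Class II molecules are pairs of an alpha and a beta chain (DR, DP or DQ) that carry peptides from endosomes to the surface of B cells, dendritic cells and macrophages, where CD4 T cells read them. CD74 holds the empty pair until endosomal proteases trim it, and HLA-DM then helps the remaining fragment to leave and a peptide to take its place. CIITA does not bind DNA itself: it docks on RFX, NF-Y and CREB proteins that sit on the X and Y boxes of class II, HLA-DM and CD74 promoters. B cells express CIITA constitutively from a promoter of their own, and interferon gamma acts on another promoter through IRF1.

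Promoter sequences are shown because CIITA acts through these boxes and because the members did not move together in the results that follow. In RefSeq (GRCh38.p14), 8 of the 10 members had a promoter entry, 250 bases before to 50 bases after the start, and HLA-DPA1 had 2 entries. HLA-DRA and CIITA were not matched. Each line gives 110 bases, from 140 to 31 bases upstream of the start, 5′ to 3′ on the strand of the gene. Capitals mark matches to the Y box (CCAAT or ATTGG), the core of the X1 box (GNAACNG or CNGTTNC) and the X2 box (TGACG or CGTCA). The first 4 genes passed the test as lower with ES in FDX1-OE cells, and HLA-DQA1 and CD74 are shown as members passing in neither direction. They lie at chr6:32589879-32589988 (minus strand, HLA-DRB1), chr6:33073680-33073789 (minus strand, the second HLA-DPA1 entry), chr6:33075850-33075959 (plus strand, HLA-DPB1), chr6:32666688-32666797 (minus strand, HLA-DQB1), chr6:32637266-32637375 (plus strand, HLA-DQA1) and chr5:150412941-150413050 (minus strand, CD74).
HLA-DRB1: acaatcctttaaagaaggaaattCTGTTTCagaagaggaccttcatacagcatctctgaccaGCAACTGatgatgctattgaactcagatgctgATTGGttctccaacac
HLA-DPA1: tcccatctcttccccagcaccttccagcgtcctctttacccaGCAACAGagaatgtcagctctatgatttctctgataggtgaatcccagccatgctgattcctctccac
HLA-DPB1: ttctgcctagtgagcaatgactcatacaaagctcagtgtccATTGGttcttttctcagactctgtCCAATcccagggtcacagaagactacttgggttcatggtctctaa
HLA-DQB1: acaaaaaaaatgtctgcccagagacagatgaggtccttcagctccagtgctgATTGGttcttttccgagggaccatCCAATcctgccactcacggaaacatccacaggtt
HLA-DQA1: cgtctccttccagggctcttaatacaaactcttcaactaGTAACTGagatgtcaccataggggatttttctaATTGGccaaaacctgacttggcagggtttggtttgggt
CD74: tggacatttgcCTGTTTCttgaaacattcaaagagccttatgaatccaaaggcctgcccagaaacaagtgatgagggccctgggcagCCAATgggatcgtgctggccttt

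In HLA-DRB1 an X1 core began 78 bases and a Y box 46 bases before the start, and in HLA-DQA1 they began 101 and 68 bases before it. Over the full promoter entries of the 8 matched members and both strands, a Y box was found in 7, an X1 core in 6 and an X2 box in 4. Among all 34796 distinct promoters of the same length the shares with a match were 34.6% for the Y box, 41.8% for the X1 core and 24.5% for the X2 box. No pair of these matches overlapped. A match is a description of the letters in this window and was not tied to the expression values.

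The 8 HLA genes lie on chromosome 6 in GENCODE release 29 (GRCh38), from HLA-DRA at 32439842 to 32445046 (plus strand) to HLA-DPB1 at 33075926 to 33087201 (plus strand). CD74 lies on chromosome 5 at 150401637 to 150412929 (minus strand) and CIITA on chromosome 16 at 10866222 to 10943021 (plus strand). Some members share sequence with relatives, and how the authors' counting treated such reads is not given. Of all 50-base stretches of 1 coding transcript per gene, 9.92% in HLA-DRB1 also occur in another gene (HLA-DRB5 or HLA-DRB6), 9.53% in HLA-DQA1 (HLA-DQA2), 4.63% in HLA-DQB1 (HLA-DQB2), 2.65% in HLA-DPB1 (HLA-DPB2 or HLA-DRB1), and none in HLA-DRA, HLA-DPA1 and CD74. HLA-DMA and HLA-DMB share 11.6% and 29.0% with the annotated gene AL645941.2. In CIITA 15.2% of such stretches also occur in another gene, mostly the annotated gene AC133065.3 on the same strand. Of its exonic bases 23.4% overlap other genes, among them AC133065.3 and, on the opposite strand, DEXI. HLA-DPA1 and HLA-DPB1 overlap by 96 exonic bases on opposite strands. The submitters' notes name hg19 without a role, and whether strand was used is not stated. The part of shared sequence in the members' values was not tested.

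FDX1 itself was 10.8 and 10.4 FPKM in control DMSO, 59.8 and 56.0 in FDX1-OE DMSO, 9.88 and 10.0 in control ES and 60.7 and 59.4 in FDX1-OE ES. FPKM counts fragments per length of gene and per size of library. It was read from the values as the unit of the files, and absolute depth is unknown. The FPKM of a library summed to 403024 and 408018 in FDX1-OE ES and to between 445716 and 451027 in the other 6 libraries. Messenger RNAs of the mitochondrial genome held 14.7% and 11.9% of the FPKM in FDX1-OE ES and 16.9% to 17.6% in the others; the part of these shifts in the members' values was not tested. The members held 0.473% to 0.527% of a library's FPKM. All 8 B cell markers in the fixed list were at 1 FPKM or more and summed to 1660 and 1674 FPKM in FDX1-OE ES and 1713 to 1823 FPKM in the others. With ES in FDX1-OE cells 3 of the 8 were called higher (BLK, PAX5 and CD79A) and 3 lower (VPREB3, CD22 and CD79B) on the deposited scale. The numbers were 1 and 5 with median-ratio scaling, and 3 and 3 with both equal FPKM totals and quantile normalisation. In the same comparison 47.1% of all genes tested were called higher and 13.7% lower on the deposited scale. Of 4 plasma cell markers tested, 3 were higher there (IRF4, XBP1 and TNFRSF17) and 1 lower (MZB1). These became 1 and 1 with median-ratio scaling, 3 and 1 with equal FPKM totals and 2 and 1 with quantile normalisation. PRDM1 and SDC1 stayed below 0.5 FPKM. The part of these marker shifts in the members' values was not tested. Of 11 T and NK cell markers, 10 stayed below 0.5 FPKM and CD3D, CD3G, CD2, CD8B and KLRD1 were at 0; TRAC made up nearly all of their sum of 70.3 to 85.6. Of 15 myeloid and dendritic cell markers, 12 stayed below 0.5 FPKM, FCGR3A, CD163, S100A8, S100A9 and CLEC4C were at 0, and the sum was 3.24 to 3.77 in control DMSO, 3.68 to 4.26 in FDX1-OE DMSO, 5.68 to 6.16 in control ES and 5.98 to 7.56 in FDX1-OE ES. In these bulk samples, fewer cells of a type and less RNA per cell cannot be told apart.

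The members spanned a wide range of levels per length. CD74 was the most abundant, with a mean of 1456 FPKM over the 8 libraries and rank 26 among all gene rows. HLA-DRA followed at 306 FPKM, then HLA-DPA1 at 169, HLA-DRB1 at 64.2, HLA-DMA at 49.0, HLA-DMB at 30.2, HLA-DPB1 at 26.8, HLA-DQA1 at 16.1, CIITA at 11.5 and HLA-DQB1 at 2.88. In that order the neighbours HLA-DMB and HLA-DPB1 overlapped across libraries (28.2 to 31.9 against 19.6 to 32.1 FPKM), as did HLA-DQA1 and CIITA (11.8 to 18.8 against 9.36 to 15.6 FPKM). All other neighbours were apart in all 8 libraries. The alpha chain was the higher of each pair: HLA-DRA over HLA-DRB1, HLA-DPA1 over HLA-DPB1 and HLA-DQA1 over HLA-DQB1.

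**Figure D1:**
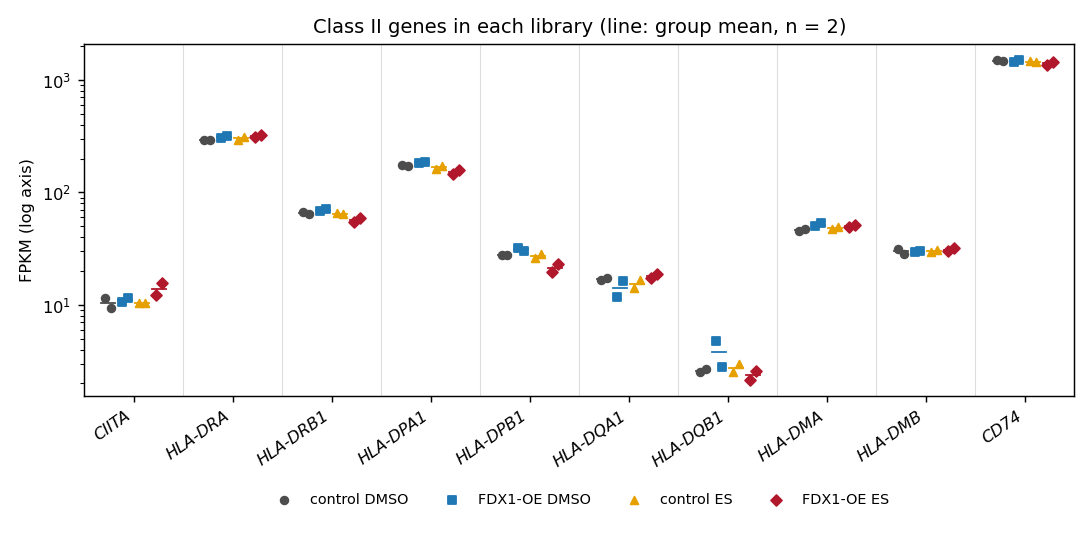
FPKM of each of the 10 members on a log axis, with 1 point per library, 4 groups of 2 libraries and a line at each group mean. CD74 stays between 1372 and 1506 FPKM, while HLA-DPB1 drops to 19.6 and 22.9 FPKM in FDX1-OE ES and CIITA reaches 12.2 and 15.6 there.

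The span across the 8 libraries differed among members. On the log2(FPKM + 1) scale used for every fold change and test here, the range from the lowest to the highest library was 0.13 for CD74, 0.16 for HLA-DRA, 0.17 for HLA-DMB and 0.21 for HLA-DMA. It was 0.38 for both HLA-DPA1 and HLA-DRB1, 0.63 for HLA-DQA1, 0.68 for CIITA, 0.69 for HLA-DPB1 and 0.88 for HLA-DQB1. The median range of all 12063 genes tested (those reaching 1 FPKM in 2 or more libraries) was 0.59. Of those genes, 0.730% had a smaller range than CD74, 1.45% than HLA-DRA, 1.99% than HLA-DMB and 4.44% than HLA-DMA.

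Differences between groups were tested with limma on log2(FPKM + 1) over all genes tested, two-sided. A call means a p below 0.05 after Benjamini-Hochberg adjustment over those genes. All 10 members were at 1 FPKM or more in all 8 libraries and passed the filter on low values. The 4 pairwise comparisons share groups with one another: the FDX1-OE DMSO libraries, for example, enter both the FDX1 comparison in DMSO and the ES comparison in FDX1-OE cells.

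For FDX1 overexpression alone, compared in DMSO, no member was called: 0 of 10 passed the limma test, where 0.00829% of all genes tested were called (1 gene, FDX1; 0.00829% higher and 0.00% lower). At an unadjusted p below 0.05 there was 1 member, HLA-DMA, and 3.48% of all genes. HLA-DMA was 45.6 and 47.0 FPKM in control cells and 49.9 and 53.0 FPKM in FDX1-OE cells, a log2 difference of 0.15 ± 0.06 (SE; 95% interval 0.01 to 0.29; adjusted p = 0.999, limma). HLA-DRA, the DR alpha chain, was 293 and 292 FPKM in control cells and 303 and 319 FPKM in FDX1-OE cells (log2 difference 0.09). The 2 libraries of a group did not overlap those of the other for 6 members that were higher and 1 that was lower with FDX1-OE, where 39.0% of all genes did not overlap (19.5% higher, 19.5% lower). The members' median log2 difference was 0.08, against 0.00 over all genes.

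For elesclomol in control cells no member was called either: 0 of 10 passed the limma test, against 7.74% of all genes (6.74% higher and 1.00% lower). None had an unadjusted p below 0.05, against 27.4% of all genes. CIITA was 11.6 and 9.36 FPKM with DMSO and 10.5 and 10.4 FPKM with ES, a log2 difference of 0.00 with a 95% interval of -0.29 to 0.29. HLA-DPB1 was 27.8 and 27.7 FPKM with DMSO and 25.9 and 28.1 FPKM with ES. CD74 was 1506 and 1472 FPKM with DMSO and 1465 and 1431 FPKM with ES, a log2 difference of -0.04 (interval -0.17 to 0.09). Only HLA-DRA, which was higher, and CD74, which was lower, had libraries that did not overlap, where 65.3% of all genes did not (48.2% higher, 17.1% lower). The members' median was -0.01 and that of all genes 0.09.

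With elesclomol in FDX1-OE cells, 4 of the 10 members fell and none rose by the test: HLA-DRB1, HLA-DPA1, HLA-DPB1 and HLA-DQB1. This was 4 of 10 against 60.8% of all genes called (47.1% higher and 13.7% lower). CD74, HLA-DRA, HLA-DMA, HLA-DMB, HLA-DQA1 and CIITA were not called. At an unadjusted p below 0.05 there were 6 members and 64.9% of all genes. These members were the 4 called ones and, in the higher direction, HLA-DQA1 and CIITA. The members' median log2 difference was -0.05, while that of all genes was 0.25.

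HLA-DPB1, the DP beta chain, was 32.1 and 30.1 FPKM in FDX1-OE DMSO and 19.6 and 22.9 FPKM in FDX1-OE ES. The groups did not overlap, and its mean FPKM fell by 31.7%. The log2 difference was -0.53 ± 0.09 (SE; 95% interval -0.73 to -0.33; adjusted p = 0.00108, limma), or -0.78 relative to the median of all genes. It was called under all 16 other settings tried, with log2 differences from -0.86 to -0.39.

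HLA-DPA1, the DP alpha chain, was 182 and 188 FPKM with DMSO and 144 and 157 FPKM with ES in FDX1-OE cells. Its mean FPKM fell by 18.5%, a log2 difference of -0.29 ± 0.06 (SE; adjusted p = 0.00427, limma). HLA-DRB1, the polymorphic DR beta chain, was 68.2 and 71.0 FPKM with DMSO and 54.2 and 59.5 FPKM with ES. Its mean FPKM fell by 18.3%, a log2 difference of -0.29 ± 0.07 (SE; adjusted p = 0.00572, limma). Neither gene's groups overlapped. Both calls were lost when all libraries were scaled to equal FPKM totals (adjusted p = 0.0651 for HLA-DPA1 and 0.082 for HLA-DRB1), and that of HLA-DPA1 also with quantile normalisation (adjusted p = 0.184); their differences stayed below 0 in every setting.

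HLA-DQB1, the DQ beta chain and the lowest member, was 4.81 and 2.82 FPKM in FDX1-OE DMSO and 2.15 and 2.57 FPKM in FDX1-OE ES. Replicate 1 of FDX1-OE DMSO was above the other 7 libraries, which lay between 2.15 and 2.98 FPKM. The log2 difference was -0.49 ± 0.18 (SE; adjusted p = 0.0474, limma), and it was -0.19 (adjusted p = 0.33) without that library. It was called in 4 of the 16 other settings. Its partner HLA-DQA1 was 11.8 and 16.4 FPKM with DMSO and 17.2 and 18.8 FPKM with ES, with no overlap and a log2 difference of 0.35 ± 0.14 (adjusted p = 0.0644, limma). That difference lay 0.10 above the median of all genes. Replicate 1 of FDX1-OE DMSO was the lowest of all 8 libraries for HLA-DQA1, as it was the highest for HLA-DQB1.

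Of the 5 other members not called, CIITA had the largest difference. HLA-DRA was 303 and 319 FPKM with DMSO and 308 and 327 FPKM with ES in FDX1-OE cells, which overlap; its log2 difference was 0.03 (95% interval -0.11 to 0.16). CD74 was 1457 and 1505 FPKM with DMSO and 1372 and 1438 FPKM with ES, with no overlap; its log2 difference was -0.08 (interval -0.20 to 0.05; adjusted p = 0.264, limma). HLA-DMA was 49.9 and 53.0 FPKM with DMSO and 49.7 and 50.8 FPKM with ES, and HLA-DMB was 29.5 and 29.9 against 30.0 and 31.9 FPKM. CIITA was 10.6 and 11.5 FPKM with DMSO and 12.2 and 15.6 FPKM with ES, with no overlap. Its mean FPKM was 26.0% higher, and its log2 difference of 0.30 ± 0.13 (SE; 95% interval 0.01 to 0.59) was not called (adjusted p = 0.0714, limma). That difference lay 0.05 above the median of all genes. Groups that did not overlap numbered 3 members higher and 5 lower, where 79.1% of all genes did not overlap (58.9% higher, 20.1% lower).

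**Figure D2:**
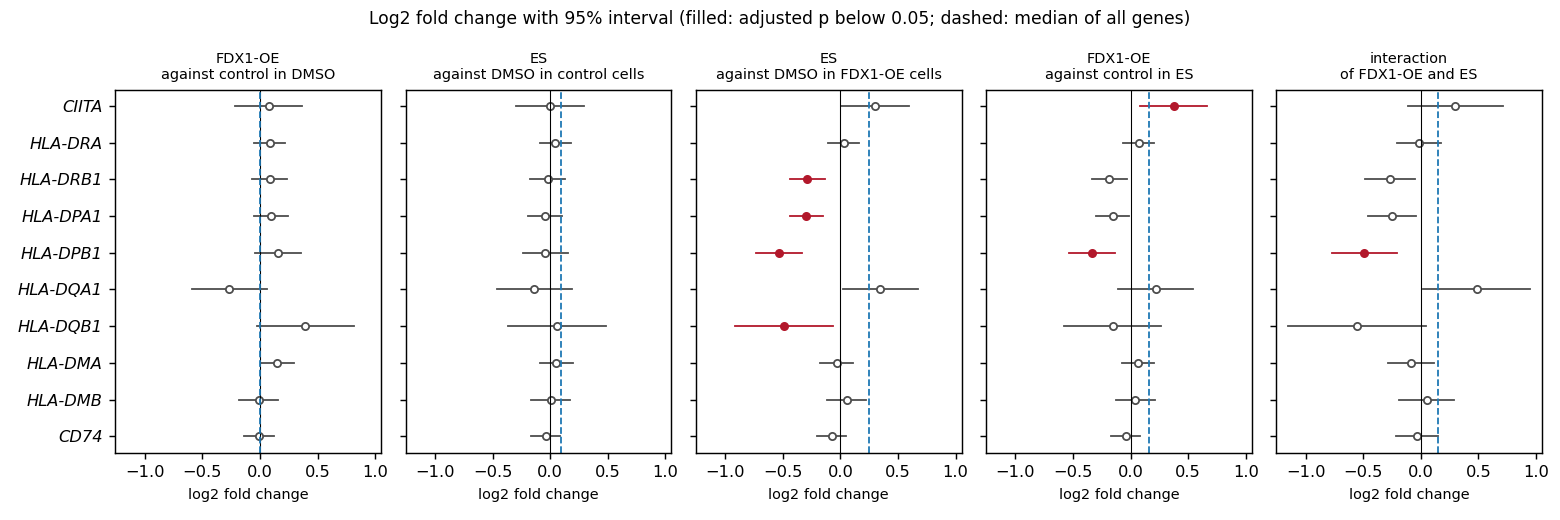
log2 differences of the 10 members in the 4 pairwise comparisons and the interaction, with 95% intervals from limma (filled points are called) and a dashed line at the median of all genes tested. The intervals of HLA-DPB1, HLA-DPA1, HLA-DRB1 and HLA-DQB1 lie below 0 for ES in FDX1-OE cells, and those of HLA-DQA1 and CIITA, neither called, lie above 0. The intervals of all members but HLA-DMA include 0 for FDX1-OE in DMSO, and those of all 10 do for ES in control cells.

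Between FDX1-OE and control cells that both received elesclomol, 2 members were called: CIITA was higher and HLA-DPB1 was lower. Of all genes 41.5% were called (31.1% higher and 10.4% lower). HLA-DPB1 was 25.9 and 28.1 FPKM in control ES and 19.6 and 22.9 FPKM in FDX1-OE ES. It did not overlap, and its log2 difference was -0.33 ± 0.09 (SE; adjusted p = 0.0173, limma). CIITA was 10.5 and 10.4 FPKM in control ES and 12.2 and 15.6 FPKM in FDX1-OE ES, 33.3% higher in the mean, with a log2 difference of 0.37 ± 0.13 (SE; adjusted p = 0.0462, limma). The CIITA difference lay 0.22 above the median of all genes, which was 0.16, and it was 0.21 (adjusted p = 0.19) without FDX1-OE ES replicate 2. CIITA was called in 5 of 16 other settings and HLA-DPB1 in 12. The call of HLA-DPB1 was lost without control ES replicate 2 (-0.28, adjusted p = 0.1), with equal FPKM totals (-0.20, adjusted p = 0.0953), with only the groups compared (adjusted p = 0.0642) and without the filter (adjusted p = 0.0525). Members called higher and lower numbered 0 and 4 with median-ratio scaling, 3 and 0 with equal totals (CIITA, HLA-DRA at 0.21 and HLA-DMA at 0.20), and 2 and 1 with quantile normalisation (HLA-DRA and CD74 higher, HLA-DPB1 lower). The median of all genes moved as well, to -0.02 with median-ratio scaling, 0.28 with equal totals and -0.00 with quantile normalisation.

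HLA-DRB1 was 65.4 and 63.9 FPKM in control ES and 54.2 and 59.5 FPKM in FDX1-OE ES (log2 difference -0.18, adjusted p = 0.0534, limma). HLA-DPA1 was 163 and 173 FPKM against 144 and 157 FPKM (log2 difference -0.16, adjusted p = 0.0796, limma). Neither overlapped and neither was called. In all, 3 members were higher and 3 lower without overlap, where 69.1% of all genes did not overlap (50.6% higher, 18.5% lower). At an unadjusted p below 0.05 there were 4 members and 51.3% of all genes, and the members' median was -0.00.

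The interaction, the ES difference in FDX1-OE cells minus that in control cells, was called for 1 member, HLA-DPB1. Of all genes 19.0% were called (13.9% positive and 5.06% negative). For HLA-DPB1 it was -0.49 ± 0.12 (SE; 95% interval -0.77 to -0.21; adjusted p = 0.0297, limma), from an ES difference of -0.04 in control cells and -0.53 in FDX1-OE cells. It was -0.27 for HLA-DRB1 (adjusted p = 0.0781) and -0.25 for HLA-DPA1 (adjusted p = 0.0828), so a different ES response in FDX1-OE cells was not shown for these genes. For CIITA it was 0.30 (interval -0.12 to 0.71; adjusted p = 0.264, limma). The HLA-DPB1 call held in 7 of 15 other settings: it was lost on leaving out any 1 of the 6 libraries outside FDX1-OE ES, with adjusted p from 0.0692 to 0.107, without the filter (adjusted p = 0.084) and with equal FPKM totals (-0.36, adjusted p = 0.0626), and the estimate lay between -0.69 and -0.36 in all 15. With equal totals the only member called was HLA-DQA1, at 0.61 (adjusted p = 0.0472, limma).

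Calls and some directions depended on how the libraries were scaled. For ES in FDX1-OE cells the median of all genes was 0.25 on the deposited scale, -0.04 with median-ratio scaling, 0.37 with equal FPKM totals and -0.01 with quantile normalisation. Members called higher and lower numbered 0 and 4 on the deposited scale, 0 and 8 with median-ratio scaling, 4 and 1 with equal totals, and 2 and 3 with quantile normalisation. Of all genes called, 5682 of 7334 were higher on the deposited scale, 2740 of 6385 with median-ratio scaling, 7063 of 8156 with equal totals and 2783 of 5720 with quantile normalisation. HLA-DRB1, HLA-DPA1, HLA-DPB1 and HLA-DQB1 were lower under all 4 scalings. HLA-DQA1 was higher under all 4. HLA-DRA, CD74, HLA-DMA, HLA-DMB and CIITA changed sign among them: HLA-DRA ran from -0.31 to 0.22, CD74 from -0.42 to 0.32 and CIITA from -0.01 to 0.43.

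**Figure D3:**
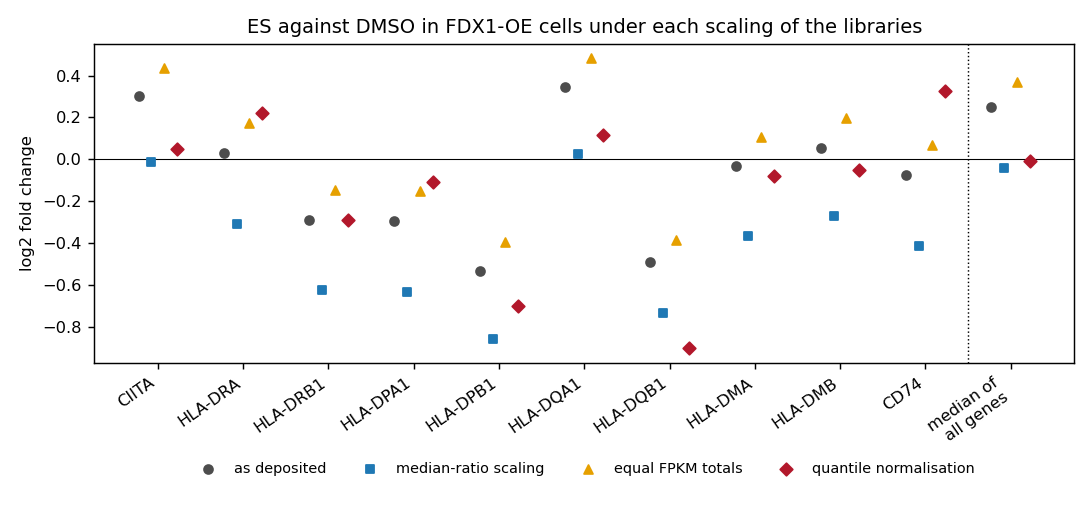
log2 differences of the 10 members for ES against DMSO in FDX1-OE cells under the deposited scale, median-ratio scaling, equal FPKM totals and quantile normalisation. HLA-DPB1 is below 0 under each, from -0.86 to -0.39, and CD74 lies on both sides of 0.

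Ratios between members within a library do not depend on the scaling factor of that library. HLA-DRA per HLA-DRB1, the alpha to beta ratio of DR, was 4.36 and 4.57 in control DMSO, 4.44 and 4.50 in FDX1-OE DMSO, 4.50 and 4.84 in control ES, and 5.68 and 5.49 in FDX1-OE ES. The FDX1-OE ES libraries were above the other 6. HLA-DPA1 per HLA-DPB1 was 6.31 and 6.15, 5.66 and 6.24, 6.29 and 6.15, and 7.36 and 6.84 in the same order of groups, again highest in FDX1-OE ES. HLA-DQA1 per HLA-DQB1 was 6.59 and 6.52, 2.45 and 5.82, 5.61 and 5.56, and 7.98 and 7.30. HLA-DMA per HLA-DMB stayed within 1.44 to 1.77.

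Chosen after the values were seen, HLA-DRA per HLA-DPB1 was 10.5 and 10.6 in control DMSO, 9.42 and 10.6 in FDX1-OE DMSO, 11.4 and 11.0 in control ES, and 15.7 and 14.2 in FDX1-OE ES. HLA-DRA per HLA-DPA1 was 1.67 to 1.81 in 6 libraries and 2.14 and 2.08 in FDX1-OE ES. CD74 per summed FPKM of the 8 HLA members moved little, from 2.12 to 2.28, and the summed 8 HLA members lay between 625 and 711 FPKM. With 2 libraries against 2, an exact two-sided permutation test cannot go below p = 0.333. The ratios are given as descriptions, with no test.

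**Figure D4:**
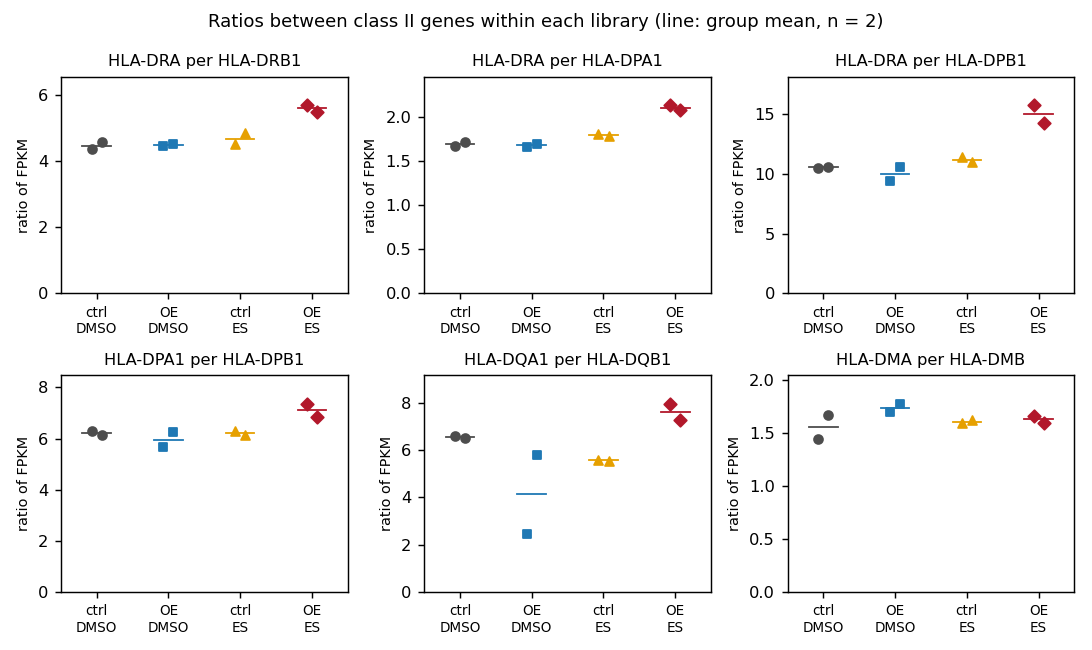
Within-library FPKM ratios between members, 1 point per library in 4 groups of 2. HLA-DRA per HLA-DRB1 is 5.68 and 5.49 in FDX1-OE ES and at most 4.84 elsewhere, while HLA-DMA per HLA-DMB spans 1.44 to 1.77 over all groups.

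Across the 8 libraries HLA-DPA1 and HLA-DPB1 had a Pearson r of 0.97, HLA-DRB1 and HLA-DPA1 0.96, and HLA-DRB1 and HLA-DPB1 0.94. HLA-DRA had an r of -0.22 with its partner HLA-DRB1 and 0.87 with HLA-DMA, and HLA-DQA1 had -0.78 with HLA-DQB1. CIITA had an r of -0.54 with HLA-DPB1, -0.44 with HLA-DRB1, 0.74 with HLA-DRA and 0.78 with HLA-DMB. These values describe 8 points in 4 groups that share each library's scaling. By the same measure over 6795 genes, those most like CIITA were CAMTA2 (0.98), ZNF76, PRKD2, CHPF and AARS1 (0.95). Those most like CD74 were C8orf82 (0.98), NXT1, NCF4, OTUB1 and BTBD2 (0.96), and those most like the mean of the 8 HLA members were SLC25A25 (0.97), FBXL19, GMPPB, WDR83OS and RPS6KB2 (0.92).

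The fixed lists around the members held 68 further genes tested. None was called for FDX1-OE in DMSO. With ES in control cells 6 were higher and none lower, with ES in FDX1-OE cells 36 were higher and 12 lower, and between FDX1-OE and control cells in ES 28 were higher and 9 lower. In the interaction 18 were positive and 4 negative. The counts for ES in FDX1-OE cells and for the interaction include CD9 and CD44, which passed the filter only through the FDX1-OE ES libraries. The higher and lower calls were 52.9% and 17.6% of the 68 for ES in FDX1-OE cells, against 47.1% and 13.7% of all genes, and 41.2% and 13.2% for FDX1-OE against control in ES, against 31.1% and 10.4%. In control cells 8.82% were called higher with ES, against 6.74% of all genes, and in the interaction 26.5% were positive and 5.88% negative, against 13.9% and 5.06%. These shares describe lists chosen with earlier results of these data known, and were not tested against all genes. The median log2 difference of the 68 genes for ES in FDX1-OE cells was 0.28, and that of all genes was 0.25. Higher and lower calls among them in that comparison were 20 and 24 with median-ratio scaling, 43 and 6 with equal totals and 25 and 16 with quantile normalisation. Of the 48 calls there, 24 were made in the same direction under all 3 other scalings and 5 (NFYB, CREB1, PAX5, IFNGR2 and LAMP1) changed sign under at least 1. In the following paragraphs rises and falls are on the deposited scale. Genes whose call with ES in FDX1-OE cells held under every scaling are named at the end of each. Of the 6 calls with ES in control cells, 1 held under all 3 other scalings. Those of NLRC5, IRF4, CTSB and MARCHF9 were lost with quantile normalisation, and those of MARCHF9 and CXCR4 with median-ratio scaling.

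Among other class II chains, 6 of the 10 in the files were tested, and 0 were called higher and 2 lower with ES in FDX1-OE cells, where 47.1% of all genes were higher and 13.7% lower. HLA-DOB, a chain of the HLA-DM inhibitor HLA-DO, fell (-0.24), and the pseudogene HLA-DRB6 fell (-0.36). HLA-DRB6 was 6.73 and 6.85 FPKM in FDX1-OE DMSO and 5.00 and 5.17 FPKM in FDX1-OE ES, and it shares sequence with HLA-DRB1. In ES, HLA-DRB6 was lower (-0.28) and HLA-DQA2, a near copy of HLA-DQA1, was higher (0.23) in FDX1-OE than in control cells. Higher and lower calls of the list between these groups were 0 and 3 with median-ratio scaling, 1 and 0 with equal totals and 0 and 3 with quantile normalisation. HLA-DRB5 and HLA-DOA were not called in any comparison, and no gene of the list was called in the interaction. With median-ratio scaling all 6 were called lower with ES in FDX1-OE cells, with equal totals 1 and with quantile normalisation 5. HLA-DRB6 was called lower under every scaling in that comparison only.

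Among factors that assemble at class II promoters, with ES in FDX1-OE cells 9 of 15 rose and 1 fell (CARM1, an arginine methyltransferase, -0.36), where 47.1% of all genes were called higher and 13.7% lower, and none of 15 was called in control cells. Median-ratio scaling gave 5 higher and 4 lower, equal totals 11 and 1, and quantile normalisation 6 and 2. RFX5, the DNA-binding RFX subunit, rose by 0.33 on the log2 scale, and RFXAP and RFXANK, its partners, were not called. Interactions were called for 6, all positive: the CIITA cofactor ZXDC 0.93, the acetyltransferases CREBBP 0.95, EP300 0.51 and KAT2B 0.67, the NF-Y subunit NFYA 0.39 and ATF1 0.43. Of all genes 13.9% had a called positive interaction and 5.06% a negative one. Positive and negative calls of the list were 3 and 2 with median-ratio scaling, 7 and 0 with equal totals and 4 and 0 with quantile normalisation. CREBBP was 9.14 and 8.67 FPKM in FDX1-OE DMSO and 18.9 and 23.9 FPKM in FDX1-OE ES. With ES in FDX1-OE cells the calls of NFYA, ZXDC, CREBBP, EP300, KAT2B and CARM1 held under every scaling.

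Among regulators of CIITA, a list that also holds its relative NLRC5, 9 of 14 rose and 2 fell with ES in FDX1-OE cells. There, 47.1% of all genes were called higher and 13.7% lower. Median-ratio scaling gave 5 higher and 3 lower, equal totals 10 and 1, and quantile normalisation 7 and 2. IRF1, which binds the interferon-responsive CIITA promoter, was 1.68 and 1.38 FPKM in control DMSO, 1.85 and 1.95 in FDX1-OE DMSO, 2.96 and 2.65 in control ES, and 7.13 and 10.4 in FDX1-OE ES. The FDX1-OE ES libraries were above the other 6. Its log2 difference with ES was 1.73 in FDX1-OE cells (adjusted p = 7.68e-05, limma) and 0.59 in control cells, where it was not called (adjusted p = 0.0587, limma), and its interaction was 1.14 ± 0.22 (SE; adjusted p = 0.0143, limma). CIITA was called with ES in neither.

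NLRC5, a CIITA relative that acts on MHC class I genes, was called with ES in control cells (0.74) and in FDX1-OE cells (1.52). IRF4, an interferon regulatory factor of the B lineage, was called in both too (0.51 and 1.57). SOCS1, an inhibitor of JAK signalling, was called with ES in FDX1-OE cells (1.18) and in the interaction (0.86). The repressor BCL6 fell by 0.52 on the log2 scale and IRF8 by 0.22 with ES in FDX1-OE cells. BCL6 had the only called negative interaction of the list (-0.35), where 5.06% of all genes had one. PAX5, a B cell factor, rose by 0.28 with ES in FDX1-OE cells and was at -0.05 with median-ratio scaling. The calls of IRF1, IRF4, NLRC5, SOCS1, JAK2 and BCL6 with ES in FDX1-OE cells held under every scaling. With ES in control cells the list had 2 higher calls and 0 lower on the deposited scale. These became 1 and 1 with median-ratio scaling, 2 and 0 with equal totals and 0 and 0 with quantile normalisation. Chosen after the values were seen, NLRC5 per CIITA was 0.153 to 0.250 in the 4 DMSO libraries, 0.348 and 0.392 in control ES, and 0.625 and 0.610 in FDX1-OE ES.

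**Figure D5:**
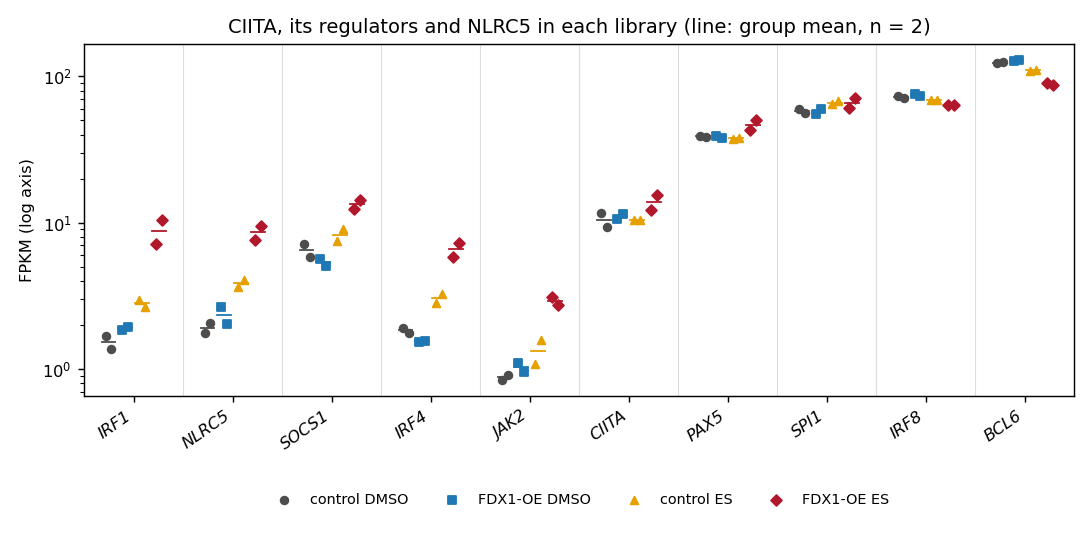
FPKM of CIITA beside regulators and NLRC5 from the fixed list, on a log axis. Each of 4 groups of 2 has 1 point per library and a line at its mean. IRF1 goes from at most 1.95 FPKM with DMSO to 7.13 and 10.4 FPKM in FDX1-OE ES, while CIITA lies between 9.36 and 15.6 FPKM throughout.

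Of genes that process antigen for class II, 8 of 14 rose and 3 fell with ES in FDX1-OE cells, beside 47.1% and 13.7% of all genes. Median-ratio scaling gave 3 higher and 5 lower, equal totals 10 and 2, and quantile normalisation 5 and 3. CTSB, a lysosomal protease, was 8.61 and 8.85 FPKM with DMSO and 24.4 and 31.4 FPKM with ES there, and was called in control cells too (0.68) and in the interaction (0.88). CTSS, the protease that trims CD74 in B cells, rose by 0.44 on the log2 scale. IFI30, the thiol reductase of the class II pathway, fell from 510 and 512 to 340 and 359 FPKM, with an interaction of -0.45 (adjusted p = 0.0204, limma). AP1S1, a subunit of a sorting adaptor, fell by 0.39 with an interaction of -0.34, and the oxidase chain CYBB fell by 0.39. CTSD had an interaction of 0.50 that was not called (adjusted p = 0.0521, limma). The calls of CTSB, CTSD, SPPL2A, IFI30 and AP1S1 with ES in FDX1-OE cells held under every scaling.

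Of 11 genes of class II trafficking and turnover, 5 rose and 2 fell with ES in FDX1-OE cells, shares near the 47.1% and 13.7% of all genes. The numbers were 3 and 4 with median-ratio scaling, 7 and 0 with equal totals and 3 and 2 with quantile normalisation. The tetraspanins CD81 (-0.22) and CD37 (-0.33) fell. The ubiquitin ligase MARCHF9 was called with ES in control cells (0.46) and in FDX1-OE cells (0.41), and MARCHF8, which ubiquitinates class II, rose in FDX1-OE cells (0.55). The only interaction called was that of CD9 (0.86), a gene at no more than 0.456 FPKM outside FDX1-OE ES, where it was 1.25 and 2.00 FPKM. CD9 passed the filter on low values only through those 2 libraries, so its calls are not independent of that filter. The calls of MARCHF8 and, with that limit, CD9 with ES in FDX1-OE cells held under every scaling.

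All 4 tested partners of CD74 were called with ES in FDX1-OE cells, 2 higher and 2 lower, where 60.8% of all genes were called (47.1% higher and 13.7% lower). MIF, a cytokine that binds CD74, was 789 and 819 FPKM in FDX1-OE DMSO and 396 and 459 FPKM in FDX1-OE ES, a log2 difference of -0.91 ± 0.07 (SE; adjusted p = 4.81e-05, limma), with an interaction of -0.80. Its relative DDT fell by 0.31. CD44, the signalling partner of CD74, was at most 0.357 FPKM outside FDX1-OE ES and was 1.31 and 2.00 FPKM there, with an interaction of 1.20. CD44 passed the filter on low values only through those 2 libraries, so its calls are not independent of that filter. CXCR4, a co-receptor for MIF, rose by 0.63 and was also called with ES in control cells (0.39). With ES in FDX1-OE cells MIF, CXCR4 and, with the limit of the filter, CD44 kept their calls under every scaling.

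Of 4 tested costimulatory molecules that B cells show beside class II, 3 were called higher with ES in FDX1-OE cells, where 47.1% of all genes were. The number was 2 with median-ratio scaling, 3 with equal totals and 2 with quantile normalisation. CD86 was 13.6 and 13.6 FPKM in FDX1-OE DMSO and 35.3 and 34.6 FPKM in FDX1-OE ES, and was 14.9 and 13.2 against 19.5 and 22.8 FPKM in control cells. Its interaction was 0.74 (adjusted p = 0.01, limma). CD40 and CD80 were called with ES in FDX1-OE cells (0.41 and 0.61) and in the interaction (0.71 and 0.63), and neither was called with ES in control cells. ICOSLG was called in no comparison. The call of CD86 with ES in FDX1-OE cells held under every scaling; those of CD40 and CD80 held under 2 of the 3 others each.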

How the data were processed

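Total RNA of 8 WSU-DLCL2 libraries was sequenced. The files hold 1 value for each of 60592 gene rows, taken as FPKM made by the authors; no header or label names the unit, which was read from the values. HISAT2, HTSeq, R 3.2.0 and hg19 are named, without roles, per the submitters' processing notes. The tool and annotation behind the deposited FPKM and the absolute depth are not given in the sources used here. Groups came from the labels.

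The 12063 genes that reached 1 FPKM in 2 or more libraries were tested. In R 4.3.3, limma 3.58.1 modelled log2(FPKM + 1) of all 8 libraries by 4 group means with a mean-variance trend, with 4 residual and 4.25 prior degrees of freedom. Benjamini-Hochberg adjustment ran over all genes tested, in each of 5 comparisons: FDX1-OE against control in DMSO and in ES, ES against DMSO in control and in FDX1-OE cells, and the interaction. Fold changes on this scale understate those of low genes. No scaling was added to the deposited values. Scripts were tested on simulated data.

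The members and lists were chosen with earlier results of these data known. By rule all 10 members are named, and of each other list up to 4 genes with the smallest p in the interaction, plus those needed to name small counts; other genes named, and library values shown for them, were chosen after their values were seen. One gene of these lists is not reported here. Likeness was ranked among genes whose mean log2 value was 3 or more. Symbols occurring on several rows made up 1059 rows, none of them a member. Alternatives were a pseudocount of 0.1, no filter, 3 other scalings, array weights, a replicate block, a fit of the compared groups alone, and leaving out each library.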

Additional observations from a re-analysis of the deposited data

Results flagged for a closer look

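The genes in this section were picked out because the ES response differed between FDX1-OE and control cells by the test of that difference itself (the limma interaction, adjusted p below 0.05). HLA-DPB1 was the only one of the 10 members, at -0.49.

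Of the promoter factors, ZXDC had an interaction of 0.93, CREBBP 0.95, EP300 0.51, KAT2B 0.67, NFYA 0.39 and ATF1 0.43. Of the regulators of CIITA, IRF1 had 1.14, IRF4 1.06, SOCS1 0.86, JAK2 0.65, JAK1 0.37 and BCL6 -0.35. NLRC5, a CIITA relative kept in that list, had 0.78. The antigen processing genes were CTSB at 0.88, IFI30 at -0.45 and AP1S1 at -0.34, and the trafficking gene was CD9 at 0.86. Of the CD74 partners MIF had -0.80 and CD44 1.20, and of the costimulatory genes CD86 had 0.74, CD40 0.71 and CD80 0.63. Of all genes tested 19.0% had a called interaction, and the median of all genes was 0.15. None of the 22 other genes changed sign under the 3 other scalings, and 10 of them (ZXDC, CREBBP, KAT2B, IRF1, IRF4, SOCS1, CTSB, MIF, CD44 and CD86) kept their call under all 3. CD44 and CD9 passed the filter on low values only through the FDX1-OE ES libraries. Their calls, under any scaling, are therefore not independent of that filter.

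The FDX1-OE ES libraries enter each of these values, and their 2 replicates were farther apart than those of other groups: the median absolute log2 difference was 0.16, against 0.08 in control DMSO, 0.07 in FDX1-OE DMSO and 0.09 in control ES. For the members alone it was 0.12, against 0.05, 0.08 and 0.07. The part of that spread in these interactions was not tested.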

How the results depend on the processing

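Depth is unknown, so counting error could not be given. Of 790 values of single members under other settings, 724 kept their call, or lack of one, 38 lost a call, 23 gained one and 5 were called in the direction opposite to the reported value; changes of sign among uncalled values are not counted. Those 5 were CD74 with quantile normalisation for FDX1-OE against control in ES (0.28), for ES in FDX1-OE cells (0.32) and for the interaction (0.30), and HLA-DRA (-0.31) and HLA-DMB (-0.27) with median-ratio scaling for ES in FDX1-OE cells. Shares of the members' summed FPKM do not depend on a single factor per library, as in median-ratio scaling or equal totals, but can change with quantile normalisation. On the deposited scale CD74 held 67.6% to 69.2% in every library.

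For FDX1-OE against control in ES, the 2 members called (1 higher, 1 lower) became 0 without the filter and 0 with only the groups compared, 1 with array weights, 4 with median-ratio scaling (all lower), 3 with equal totals (all higher) and 3 with quantile normalisation (2 higher, 1 lower), and leaving out 1 library gave 0 to 3. For ES in FDX1-OE cells, the 4 became 8 with median-ratio scaling, and leaving out 1 library gave 3 to 5. For the interaction, the 1 became 0 without the filter, 2 with quantile normalisation and 3 with median-ratio scaling, and leaving out 1 library gave 0 to 3. For FDX1-OE in DMSO and for ES in control cells no member was called in any setting. Apart from fewer libraries or other genes tested, the cause was not tested. Leaving out 1 library left its group with a single library, assumed to vary like the others.

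The replicate numbers were given in accession order and did not pair the libraries (correlations of replicate deviations between groups from -0.05 to 0.08). With the replicate number as a block, 1 member was called for FDX1-OE against control in ES and 4 for ES in FDX1-OE cells, where HLA-DQA1 (0.35, adjusted p = 0.0212, limma) was in and HLA-DQB1 (adjusted p = 0.0608, limma) was out.

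All genes called ranged from 1 to 4 for FDX1-OE in DMSO (1 reported), from 2511 to 6606 for FDX1-OE against control in ES (5008), from 28 to 2523 for ES in control cells (934), from 5538 to 8164 for ES in FDX1-OE cells (7334) and from 539 to 3868 for the interaction (2291). Of the 68 other pathway genes, those called ranged from 19 to 41 for FDX1-OE against control in ES (37), from 0 to 21 for ES in control cells (6), from 37 to 49 for ES in FDX1-OE cells (48) and from 4 to 30 for the interaction (22).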
